A study of Mus musculus with 6 samples.

Results

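The mitosis and spindle genes are 55 genes that act late in the cell cycle, when a cell enters mitosis, builds the spindle, separates its chromosomes and divides. They were taken by symbol from a fixed list of genes for mitotic entry, the kinetochore, condensin, the spindle and cytokinesis. Measured values were not part of that rule. The list, like the other lists used below, was chosen with earlier results of these data known, so the counts and shares called are descriptions. All 55 were among the 32285 rows of the count table, and all 55 passed the filter on low counts that left 17307 genes for testing. The 55 genes were sorted into 12 roles, and each role is described in turn.

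RNA was sequenced from CD4+CD25+ regulatory T cells (Tregs) sorted from the spleens of C57BL/6 mice. There were 3 libraries labelled WT and 3 labelled Zfp335 deficient, called KO here. The KO mice carried ERCre, a Cre recombinase that enters the nucleus only after tamoxifen, together with loxP-flanked alleles of Zfp335 (Zfp335 fl/fl). The labels call the controls wild-type littermates, and the study's methods describe ERCre mice without the floxed allele as the WT. By those methods the mice were 6 weeks old when tamoxifen was given on days 1, 3 and 5, and they were killed on day 7. The labels do not mention tamoxifen, and no source limits the deletion to Tregs. The comparison asks how these Tregs differed shortly after Zfp335, a zinc finger transcription factor, was lost. No source says which libraries came from separate mice, so the p-values measure the spread between these libraries only.

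As background, a dividing cell switches on the genes for mitosis together, late in the cycle. Cyclin B with the kinase Cdk1 starts mitosis, the kinetochore ties each chromosome to spindle microtubules, the spindle checkpoint holds the cell until all are attached, and the anaphase-promoting complex then marks cyclin B and securin for destruction. Many of the genes carry a short promoter element, the cell cycle genes homology region (CHR), often with CCAAT boxes upstream of it. In resting cells the DREAM complex, which holds E2f4, the pocket protein Rbl2 and the DNA-binding subunit Lin54, represses genes through that element. In cycling cells Mybl2 and Foxm1 act through the same element to switch them on. Treg pools in the spleen hold both resting and cycling cells, and transcripts such as Mki67 are used to mark the cycling ones.

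Levels are given in CPM, the counts of a gene over a library size that was scaled by the trimmed mean of M values. A log2 fold change is KO minus WT from edgeR, SE is its standard error, and a gene is called, as risen or fallen, where the Benjamini-Hochberg adjusted p over all 17307 genes was under 0.05. Values after ± are SD over 3 libraries. Zfp335 itself stood at 124, 121 and 115 CPM in WT replicates 1 to 3 and at 14.96, 14.3 and 15.1 in KO replicates 1 to 3 (log2 fold change -3.02, SE 0.046, adjusted p = 1.20e-13), and it was lower in 3 of 3 KO libraries. The libraries held 133283969 to 209041812 counts, and the lowest count of any of the 55 genes in a library was 344, for Cdc25c. Xist was at 0.272 ± 0.132 CPM in WT and 135 ± 10.4 CPM in KO. RNA of Y-linked genes was present in all 6 libraries, with Ddx3y at 103 ± 3.88 CPM in WT and 78.7 ± 1.81 CPM in KO. The WT and KO means were 43.5 and 36.0 CPM for Kdm5d, 17.4 and 11.9 CPM for Uty and 46.6 and 46.9 CPM for Eif2s3y. Every KO library thus held both Xist and Y-linked RNA. The sex of the mice behind each library is not given, and a sex difference and the genotype cannot be told apart here.

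Most of the mitosis genes were lower in the KO libraries, by a modest amount. Of the 55, 30 fell, 2 rose and 23 did not pass the test, so that 54.5% fell where 12.1% of all genes tested fell, and 3.64% rose where 12.0% of all genes rose. The fitted log2 fold change was below 0 for 52 of 55, with a median of -0.25, against -0.0042 over all genes. Cenpa, the centromeric histone, and Plk4, the kinase that starts centriole duplication, were the 2 that rose. Among those that fell, Racgap1 changed least and Nusap1 most: Racgap1 fell by 8.96% and Nusap1 fell by 34.1%. In bulk RNA, fewer cells in mitosis and less of each transcript per cell cannot be told apart. Most markers of neutrophil precursors, red cell precursors and B cells were also lower in KO, as given below. The part of such cells in these falls was not tested.

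The counts depended on single libraries. Without WT replicate 2, 17 of the 55 fell and 2 rose, and without KO replicate 1, 18 fell and 1 rose. Without WT replicate 1, 36 fell and 1 rose. Calls over all genes moved too, from 2088 lower and 2082 higher with all libraries kept. They were 1399 lower and 1341 higher of 17762 without WT replicate 2, and 1447 and 1457 of 17961 without KO replicate 1. Without WT replicate 1 they were 2501 and 2495 of 17723. The study's methods describe cutoffs of at least 1.5-fold, P below 0.05 and adjusted p below 0.1. They are given there for DESeq2 p-values and Tregs of younger mice with another Cre, Foxp3Cre. Applied here to the edgeR fit, these cutoffs passed 1 of the 55, the lower gene Nusap1. Of all genes, 4.37% passed as lower and 2.58% as higher. The count among the 55 was 0 when WT replicate 2 or WT replicate 3 was left out, 2 without KO replicate 3 and 3 without WT replicate 1. Every KO library was below every WT library for 29 of the 55, where this held for 19.1% of all genes, and above for 2, where it held for 19.3%. No called gene changed direction when a library was left out.

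**Figure D1:**
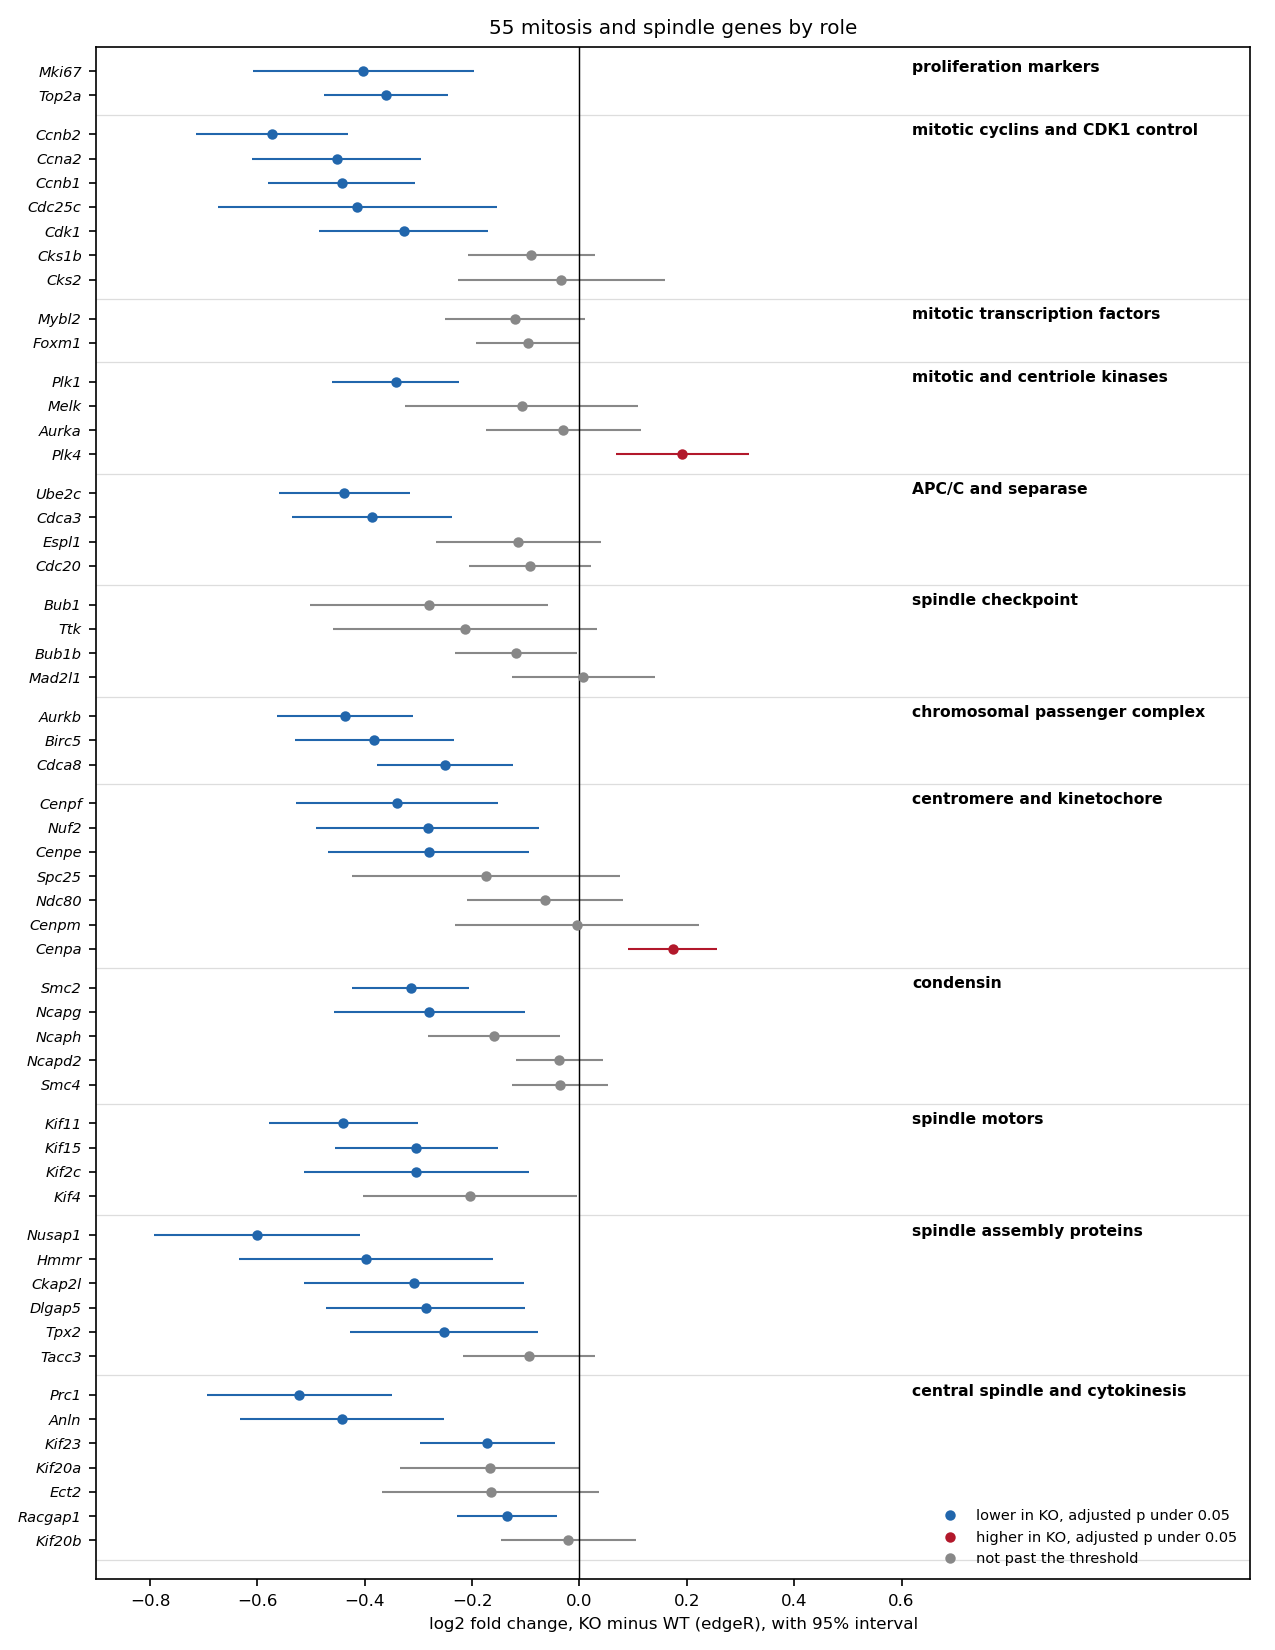
Log2 fold change (KO minus WT, edgeR) with its 95% interval for each of the 55 genes, on the horizontal axis, grouped by role and sorted within it. Blue points mark the 30 genes that fell, red the 2 that rose (Cenpa and Plk4) and grey the 23 that did not pass, and 52 of the 55 points lie left of 0. The signs of the grey genes Cks2, Aurka, Mad2l1, Cenpm and Kif20b changed under at least 1 alternative.

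The promoters of 8 genes are printed as examples, picked by how the genes moved and by the CHR letters. They belong to 5 genes that fell and hold the letters (Ccnb2, Plk1, Kif11, Prc1, Ube2c) and to Nusap1, which fell most and lacks them. The other 2 promoters are those of the genes that rose, of which Cenpa holds the letters and Plk4 does not. Each runs 5′ to 3′ along the gene's strand from 250 bases before to 50 after the annotated start, from RefSeq on GRCm38.p6, and capitals mark each CHR match, TTTGAA or TTCGAA on either strand (TTCAAA is TTTGAA on the other strand).
Ccnb2 (chr9:70421505-70421804, minus strand): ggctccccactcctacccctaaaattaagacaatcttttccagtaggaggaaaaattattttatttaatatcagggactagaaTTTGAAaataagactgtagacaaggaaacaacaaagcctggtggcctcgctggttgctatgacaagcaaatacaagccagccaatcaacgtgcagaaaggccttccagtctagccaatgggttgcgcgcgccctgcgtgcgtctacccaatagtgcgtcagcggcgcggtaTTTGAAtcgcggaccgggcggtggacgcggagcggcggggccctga
Plk1 (chr7:122159185-122159484, plus strand): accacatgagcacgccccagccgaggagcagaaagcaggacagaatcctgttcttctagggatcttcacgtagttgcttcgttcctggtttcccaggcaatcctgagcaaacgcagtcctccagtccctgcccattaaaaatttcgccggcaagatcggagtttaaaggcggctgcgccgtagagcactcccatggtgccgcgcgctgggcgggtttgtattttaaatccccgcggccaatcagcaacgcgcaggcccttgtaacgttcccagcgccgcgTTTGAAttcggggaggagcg
Kif11 (chr19:37376132-37376431, plus strand): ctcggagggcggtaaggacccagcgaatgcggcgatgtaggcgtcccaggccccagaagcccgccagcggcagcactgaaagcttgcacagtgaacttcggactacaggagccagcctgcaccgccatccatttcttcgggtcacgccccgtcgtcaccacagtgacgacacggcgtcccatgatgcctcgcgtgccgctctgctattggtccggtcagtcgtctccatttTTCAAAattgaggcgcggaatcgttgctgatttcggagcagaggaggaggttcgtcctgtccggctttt
Prc1 (chr7:80294201-80294500, plus strand): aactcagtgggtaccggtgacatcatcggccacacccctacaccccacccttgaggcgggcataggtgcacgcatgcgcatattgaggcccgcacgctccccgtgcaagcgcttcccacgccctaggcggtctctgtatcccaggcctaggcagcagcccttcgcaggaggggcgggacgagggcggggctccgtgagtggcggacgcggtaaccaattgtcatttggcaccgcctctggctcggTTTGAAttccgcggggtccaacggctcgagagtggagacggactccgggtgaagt
Ube2c (chr2:164769679-164769978, plus strand): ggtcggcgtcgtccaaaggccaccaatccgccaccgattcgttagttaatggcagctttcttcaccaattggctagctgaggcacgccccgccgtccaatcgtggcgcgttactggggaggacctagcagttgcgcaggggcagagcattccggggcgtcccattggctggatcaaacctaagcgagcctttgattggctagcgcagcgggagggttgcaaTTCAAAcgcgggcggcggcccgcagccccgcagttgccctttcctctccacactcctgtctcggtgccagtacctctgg
Nusap1 (chr2:119618048-119618347, plus strand): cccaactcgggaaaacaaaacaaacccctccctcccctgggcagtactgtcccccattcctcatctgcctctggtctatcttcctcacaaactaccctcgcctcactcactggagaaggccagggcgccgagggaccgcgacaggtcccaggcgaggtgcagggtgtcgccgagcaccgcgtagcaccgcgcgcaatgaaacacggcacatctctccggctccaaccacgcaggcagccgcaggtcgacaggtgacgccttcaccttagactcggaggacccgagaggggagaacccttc
Cenpa (chr5:30666636-30666935, plus strand): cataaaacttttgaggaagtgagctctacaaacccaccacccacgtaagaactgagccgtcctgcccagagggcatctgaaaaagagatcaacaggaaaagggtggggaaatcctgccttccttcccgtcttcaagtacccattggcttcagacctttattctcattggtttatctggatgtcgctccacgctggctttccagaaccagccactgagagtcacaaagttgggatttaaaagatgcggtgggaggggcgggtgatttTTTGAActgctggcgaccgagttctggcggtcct
Plk4 (chr3:40799701-40800000, plus strand): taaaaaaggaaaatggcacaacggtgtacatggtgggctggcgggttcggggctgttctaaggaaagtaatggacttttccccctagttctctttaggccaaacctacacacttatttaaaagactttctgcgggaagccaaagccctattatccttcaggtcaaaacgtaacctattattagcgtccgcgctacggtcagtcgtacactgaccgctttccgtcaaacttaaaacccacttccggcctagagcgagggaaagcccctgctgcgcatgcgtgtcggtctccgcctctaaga

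In Ccnb2, 1 of the 2 matches began 4 bases after the start, and in Plk1 the match began 30 bases after it. The matches of Prc1, Kif11 and Ube2c began 5, 19 and 29 bases before the start, and that of Cenpa 16 bases after it. RefSeq promoters were found for 47 of the 55 genes, 1 window a gene where there were several, and the other 8 were Aurkb, Ccna2, Cdc25c, Dlgap5, Foxm1, Kif20a, Smc4 and Tpx2. CHR letters were in 35 of the 47 (74.5%), against 19.4% of all 27025 promoters of the same length. CCAAT, on either strand, was in 70.2% against 37.8%, and both motifs together were in 63.8% against 7.57%. A CHR match and a CCAAT match can share a base at their ends. Of 49 matches in these genes, 34 (69.4%) began within 60 bases of the start, against 27.7% of the 6058 matches in all promoters. Of the 35 genes with the letters, 20 fell, 1 rose and 14 did not pass, with a median log2 fold change of -0.28. Of the 12 without them, 5 fell, 1 rose and 6 did not pass, with a median of -0.14. These counts are descriptions, and the difference between the 35 and the 12 was not tested.

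**Figure D2:**
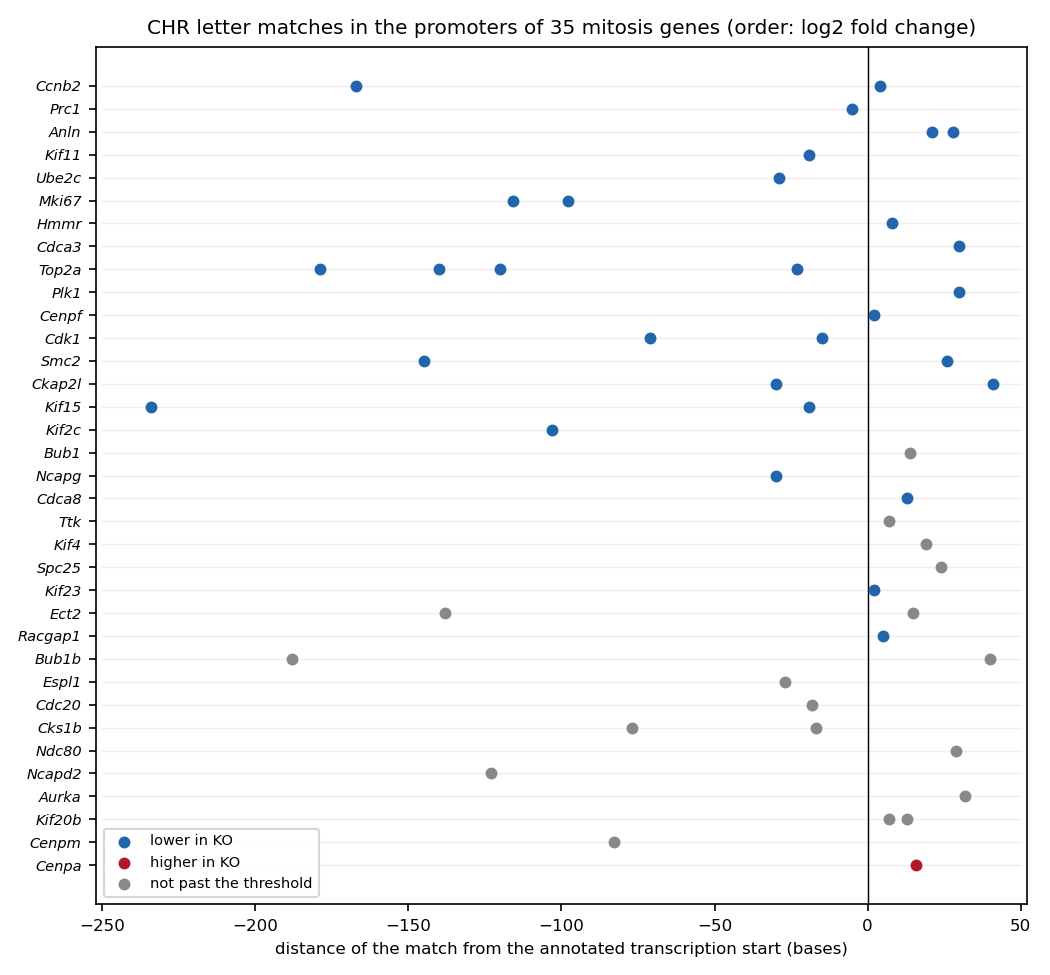
Position of each CHR letter match (points) relative to the annotated start (0 on the horizontal axis, in bases) in the promoters of the 35 genes that hold one, sorted from the lowest log2 fold change at the top. Blue genes fell, the red gene (Cenpa) rose and grey genes did not pass; 34 of the 49 matches lie within 60 bases of the start, and genes of each colour have such matches.

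Proliferation markers were lower. Mki67 (chr7:135689784-135716361, minus strand) encodes the Ki-67 protein that coats mitotic chromosomes, and Top2a encodes the topoisomerase that untangles sister chromatids. Mki67 stood at 175, 216 and 207 CPM in WT replicates 1 to 3 and at 139, 158 and 155 in KO replicates 1 to 3. It fell (log2 fold change -0.40, SE 0.087, adjusted p = 0.0150). Its highest KO library was below its lowest WT library, WT replicate 1. The adjusted p of Mki67 was 0.110 with WT replicate 3 left out, and 0.0545 with no filter on low counts. Top2a was at 102, 119.7 and 115 CPM in WT and 83.3, 89.0 and 89.6 in KO, and it fell (log2 fold change -0.36, SE 0.054, adjusted p = 0.000312). The groups did not overlap for Top2a either, and its call held without each library in turn.

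The mitotic cyclins and Cdk1 fell, and their small binding partners did not pass. Of 7 genes for cyclins and the control of Cdk1, 5 fell, with a median log2 fold change of -0.41 over the 7. Ccnb2, a B-type cyclin (chr9:70407692-70421547, minus strand), was at 17.9, 20.1 and 20.9 CPM in WT and 13.1, 12.7 and 13.7 in KO (log2 fold change -0.57, SE 0.066, adjusted p = 3.14e-05). The 3 KO libraries lay close together and below all WT libraries. Ccnb1, the main mitotic cyclin, was at 11.8, 12.7 and 12.3 CPM in WT and 8.87, 9.25 and 8.98 in KO (log2 fold change -0.44, SE 0.063, adjusted p = 0.000205). Ccna2, a cyclin of S phase and mitotic entry, was at 27.0, 33.5 and 32.5 CPM in WT and 21.8, 22.6 and 23.4 in KO (log2 fold change -0.45, SE 0.072, adjusted p = 0.000548). For both cyclins every KO library was below every WT library. Cdk1, the kinase they bind, was at 10.3, 11.5 and 12.1 CPM in WT and 8.73, 9.21 and 8.97 in KO (log2 fold change -0.33, SE 0.073, adjusted p = 0.00535). Cdc25c, a phosphatase that activates Cdk1, had the lowest level per length of the 55 and stood at 2.42, 2.55 and 2.56 CPM in WT and 1.93, 1.87 and 1.85 in KO (log2 fold change -0.41, SE 0.12, adjusted p = 0.0235). Neither gene's groups overlapped, and the adjusted p of Cdc25c was 0.0554 to 0.0816 with WT replicate 2 or KO replicates 1, 2 and 3 left out in turn. Cks1b and Cks2, small subunits that bind Cdk1, had log2 fold changes of -0.089 (95% interval -0.21 to 0.029) and -0.034 (95% interval -0.23 to 0.16). Of the 50-base stretches of their exons, 23.4% for Ccnb1 and 29.7% for Cks2 were shared with other annotated genes, so their counts are uncertain. The most frequent partner was the pseudogene Ccnb1-ps for Ccnb1 and Gm15452 for Cks2.

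**Figure D3:**
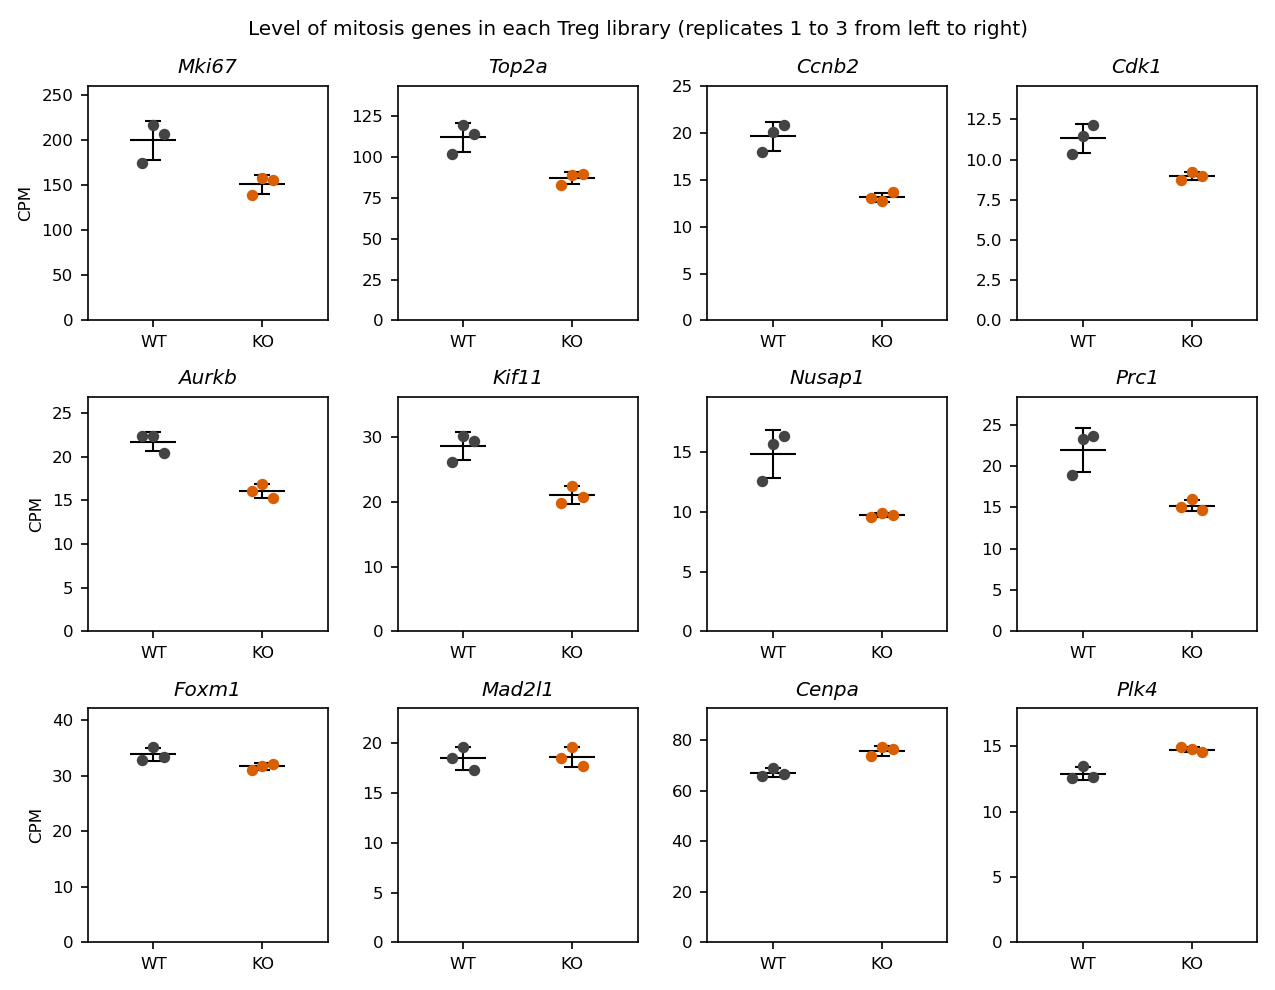
Level in CPM (vertical axes, from 0, each gene on its own scale) of 12 genes in the 3 WT libraries (grey points) and the 3 KO libraries (orange points), with the mean and SD as bars. The 8 genes of the upper and middle rows fell with no overlap of the groups, Foxm1 and Mad2l1 did not pass the test, and Cenpa and Plk4 rose.

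The mitotic transcription factors did not pass the test. Foxm1, which switches on mitosis genes late in the cycle, was at 33.0, 35.2 and 33.4 CPM in WT and 31.1, 31.9 and 32.2 in KO (log2 fold change -0.10, SE 0.045, adjusted p = 0.149, 95% interval -0.19 to 0.0012). All 3 KO libraries were below the lowest WT library by a narrow margin, without passing the test. Mybl2, which works with Foxm1 at the CHR, had a log2 fold change of -0.12 (95% interval -0.25 to 0.0094).

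The kinases moved in different directions. Plk1, the polo-like kinase that drives mitotic entry and centrosome maturation, was at 20.01, 20.8 and 22.2 CPM in WT and 16.8, 16.4 and 16.4 in KO, and it fell (log2 fold change -0.34, SE 0.055, adjusted p = 0.000530). Plk4, a relative that starts centriole duplication (chr3:40800019-40816883, plus strand), was at 12.6, 13.5 and 12.7 CPM in WT and 14.95, 14.8 and 14.6 in KO, and it rose (log2 fold change 0.19, SE 0.057, adjusted p = 0.0275). The groups of each kinase did not overlap. The call of Plk4 was the less steady, with adjusted p = 0.0555 to 0.0889 with WT replicates 1 and 3 or KO replicates 1, 2 and 3 left out in turn, and adjusted p = 0.0607 when libraries were scaled by their totals only. Aurka, the spindle pole kinase, had a log2 fold change of -0.030 (95% interval -0.17 to 0.11), and Melk, a kinase of cycling cells, one of -0.11 (95% interval -0.32 to 0.11).

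Of the genes for the anaphase-promoting complex (APC/C) and separase, 2 of 4 fell. Ube2c, the ubiquitin-conjugating enzyme of the APC/C, was at 23.8, 24.9 and 22.8 CPM in WT and 17.1, 18.6 and 17.1 in KO (log2 fold change -0.44, SE 0.056, adjusted p = 8.54e-05). Cdca3, a substrate of the APC/C that promotes mitotic entry, was at 15.9, 18.1 and 18.98 CPM in WT and 13.7, 13.8 and 12.9 in KO (log2 fold change -0.39, SE 0.069, adjusted p = 0.00119). Both had KO libraries wholly below the WT libraries, and both calls held without each library. The log2 fold changes of Cdc20, the APC/C activator that the spindle checkpoint restrains, and of Espl1, the separase that cuts cohesin, were -0.092 (95% interval -0.21 to 0.022) and -0.11 (95% interval -0.27 to 0.039).

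None of the 4 spindle checkpoint genes passed. Bub1b, the most abundant of them in CPM and part of the complex that blocks Cdc20, was at 24.1, 26.3 and 26.2 CPM in WT and 24.5, 22.9 and 23.4 in KO (log2 fold change -0.12, SE 0.053, adjusted p = 0.131). Its groups overlapped, since KO replicate 1 lay above WT replicate 1. The kinases Bub1 and Ttk had log2 fold changes of -0.28 (adjusted p = 0.0647) and -0.21 (adjusted p = 0.205). Mad2l1, which binds Cdc20 directly, was at 18.5 ± 1.17 CPM in WT and 18.6 ± 0.958 CPM in KO, a log2 fold change of 0.0070 (95% interval -0.13 to 0.14), with a fitted sign that turned negative on other scalings. Without WT replicate 1, the adjusted p was 0.00276 for Bub1, 0.0258 for Bub1b and 0.0440 for Ttk, all lower in KO, and with all libraries kept Bub1 also passed with upper-quartile factors (0.0488), library totals only (0.0419) and the stricter filter on low counts (0.0477).

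All 3 genes of the chromosomal passenger complex fell. This complex corrects wrong attachments at the centromere and then moves to the central spindle. Aurkb, its kinase, was at 22.4, 22.3 and 20.5 CPM in WT and 16.1, 16.9 and 15.3 in KO (log2 fold change -0.44, SE 0.059, adjusted p = 0.000123). Birc5 (survivin), a subunit that targets the complex, was at 16.2, 18.02 and 17.8 CPM in WT and 12.6, 14.5 and 12.7 in KO (log2 fold change -0.38, SE 0.069, adjusted p = 0.00123). Cdca8 (borealin), another targeting subunit, was at 19.98, 22.9 and 21.2 CPM in WT and 17.8, 18.2 and 17.8 in KO (log2 fold change -0.25, SE 0.058, adjusted p = 0.00701). In all 3 genes the highest KO library was below the lowest WT library. The adjusted p of Cdca8 was 0.0529 with WT replicate 2 left out.

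At the centromere and kinetochore, 3 of 7 genes fell and Cenpa rose. Cenpa encodes the histone variant that marks the centromere (chr5:30666777-30674830, plus strand). It was at 65.7, 69.2 and 66.6 CPM in WT and 73.6, 77.3 and 76.4 in KO (log2 fold change 0.17, SE 0.038, adjusted p = 0.00490). Every KO library was above every WT library, and the call held without each library. Cenpf, a large protein of the outer kinetochore, was at 15.3, 18.3 and 17.04 CPM in WT and 11.5, 13.9 and 14.5 in KO (log2 fold change -0.34, SE 0.087, adjusted p = 0.0123). Cenpe, the kinesin that carries chromosomes to the spindle equator, was at 14.97, 18.1 and 18.5 CPM in WT and 12.6, 15.03 and 14.6 in KO (log2 fold change -0.28, SE 0.086, adjusted p = 0.0313). Nuf2, a microtubule-binding subunit of the Ndc80 complex, was at 6.85, 8.74 and 8.20 CPM in WT and 6.10, 6.53 and 6.87 in KO (log2 fold change -0.28, SE 0.10, adjusted p = 0.0473). The groups overlapped for Cenpe and Nuf2, where WT replicate 1 was below 1 KO library, and did not overlap for Cenpf. The call of Nuf2 was lost in 5 of the 6 fits without a library, where its adjusted p was 0.0719 to 0.244 with WT replicates 2 and 3 or KO replicates 1, 2 and 3 left out in turn, and also with limma-voom (0.0659) and edgeR's older quasi-likelihood method (0.0538). The adjusted p of Cenpe was 0.0663 to 0.149 with WT replicates 2 and 3 or KO replicates 1 and 3 left out in turn, and that of Cenpf was 0.0853 with WT replicate 2 left out and 0.0582 with KO replicate 1 left out. The other subunits of the Ndc80 complex in the list, Ndc80 and Spc25, had log2 fold changes of -0.064 (95% interval -0.21 to 0.081) and -0.17 (95% interval -0.42 to 0.075), and Cenpm, of the inner kinetochore, one of -0.0043 (95% interval -0.23 to 0.22).

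Condensin, the ring complex that compacts chromosomes, split between subunits. Smc2 and Smc4 are the pair of ATPase arms shared by condensin I and condensin II, and Ncapg, Ncaph and Ncapd2 belong to condensin I. Smc2 was at 37.6, 42.3 and 41.7 CPM in WT and 32.7, 31.9 and 33.2 in KO, and it fell (log2 fold change -0.31, SE 0.051, adjusted p = 0.000539). Ncapg was at 10.8, 12.9 and 12.02 CPM in WT and 8.92, 10.4 and 10.03 in KO (log2 fold change -0.28, SE 0.083, adjusted p = 0.0258), with adjusted p = 0.0635 to 0.153 with WT replicate 2 or KO replicates 1 and 3 left out in turn. In both genes every KO library was below every WT library. Smc4 was the most abundant of the 55 genes on every scale, at 537, 577 and 598 CPM in WT and 546, 546 and 577 in KO, and its groups overlapped (log2 fold change -0.036, SE 0.041, adjusted p = 0.591, 95% interval -0.13 to 0.053). Per kilobase of exon Smc4 was at 109.5 CPM in WT, where the next of the 55, Cks2, was at 23.8, the median was 3.65 and the lowest, Cdc25c, was at 0.510. Ncaph had a log2 fold change of -0.16 (adjusted p = 0.0591), and it passed in 6 of the 17 alternatives, as lower in KO, with adjusted p from 0.0101 without WT replicate 1 to 0.0496 with DESeq2, and Ncapd2 one of -0.038 (95% interval -0.12 to 0.044).

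Among the spindle motors, 3 of 4 kinesins fell. Kif11, which pushes the spindle poles apart, was at 26.2, 30.1 and 29.4 CPM in WT and 19.8, 22.5 and 20.8 in KO (log2 fold change -0.44, SE 0.064, adjusted p = 0.000242). Kif15, which backs up Kif11, was at 13.8, 13.98 and 14.8 CPM in WT and 10.3, 11.9 and 12.1 in KO (log2 fold change -0.30, SE 0.070, adjusted p = 0.00673). Kif2c, which takes microtubules apart at the centromere, was at 7.99, 10.4 and 8.998 CPM in WT and 6.84, 7.64 and 7.72 in KO (log2 fold change -0.30, SE 0.10, adjusted p = 0.0366). None of the 3 overlapped between groups. The calls of Kif11 and Kif15 held without each library, whereas the adjusted p of Kif2c was 0.0709 to 0.220 with WT replicate 2 or KO replicates 1, 2 and 3 left out in turn, and 0.0514 with limma-voom. Kif4, a chromosome arm motor, had a log2 fold change of -0.20 (adjusted p = 0.136, and 0.0109 without WT replicate 1).

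Spindle assembly proteins held the gene that fell most. Nusap1, which bundles spindle microtubules (chr2:119618298-119651244, plus strand), was at 12.5, 15.7 and 16.3 CPM in WT and 9.56, 9.88 and 9.74 in KO (log2 fold change -0.60, SE 0.089, adjusted p = 0.000275). The 3 KO libraries were close together and all lay below WT replicate 1, the lowest WT library. Hmmr, a spindle pole protein, was at 7.29, 9.36 and 9.51 CPM in WT and 5.75, 6.85 and 7.09 in KO (log2 fold change -0.40, SE 0.11, adjusted p = 0.0180), with adjusted p = 0.109 with WT replicate 2 left out and 0.0883 with KO replicate 1 left out. Dlgap5, which stabilises kinetochore fibres, was at 12.7, 16.6 and 15.7 CPM in WT and 12.3, 12.3 and 12.3 in KO (log2 fold change -0.29, SE 0.086, adjusted p = 0.0278). WT replicate 1 of Dlgap5 was barely above the KO libraries, and its adjusted p was 0.0610 to 0.171 with WT replicates 2 and 3 or KO replicates 1, 2 and 3 left out in turn. Ckap2l, a microtubule-associated protein, was at 9.41, 12.1 and 11.3 CPM in WT and 8.29, 8.44 and 9.68 in KO (log2 fold change -0.31, SE 0.10, adjusted p = 0.0317), and its adjusted p was 0.0610 to 0.187 with WT replicates 2 and 3 or KO replicates 1 and 2 left out in turn. Tpx2, which nucleates microtubules and activates Aurka, was at 17.7, 22.6 and 21.0 CPM in WT and 16.1, 18.1 and 17.1 in KO (log2 fold change -0.25, SE 0.081, adjusted p = 0.0389). The groups of Ckap2l and Tpx2 overlapped, and the adjusted p of Tpx2 was 0.0550 to 0.219 with WT replicates 2 and 3 or KO replicates 1, 2 and 3 left out in turn, and 0.0621 with limma-voom. Tacc3, a spindle microtubule stabiliser, had a log2 fold change of -0.094 (95% interval -0.22 to 0.029).

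Of 7 genes for the central spindle and cytokinesis, 4 fell. Prc1, which bundles the antiparallel microtubules of the central spindle, was at 18.9, 23.3 and 23.6 CPM in WT and 15.001, 15.98 and 14.6 in KO (log2 fold change -0.52, SE 0.080, adjusted p = 0.000368). Anln (anillin), a scaffold of the contractile ring, was at 5.06, 4.96 and 4.87 CPM in WT and 3.59, 3.70 and 3.68 in KO (log2 fold change -0.44, SE 0.088, adjusted p = 0.00251). For both the groups were apart, and both calls held without each library. Kif23 and Racgap1 form the centralspindlin complex and showed smaller falls. Kif23 was at 18.3, 20.3 and 19.6 CPM in WT and 16.8, 17.9 and 16.8 in KO (log2 fold change -0.17, SE 0.058, adjusted p = 0.0475). Racgap1 was at 54.0, 57.2 and 53.2 CPM in WT and 50.7, 51.0 and 48.1 in KO (log2 fold change -0.14, SE 0.043, adjusted p = 0.0361). Neither overlapped between groups, but both calls were close to the threshold. The adjusted p of Kif23 was 0.0638 to 0.214 with WT replicates 2 and 3 or KO replicates 1, 2 and 3 left out in turn, and it was 0.0558, 0.0554 and 0.0524 with no filter on low counts, limma-voom and edgeR's older method. That of Racgap1 was 0.0790 to 0.188 with WT replicate 2 or KO replicates 1, 2 and 3 left out in turn. Ect2, the exchange factor that centralspindlin recruits, and the kinesins Kif20a and Kif20b had log2 fold changes of -0.17, -0.17 and -0.021, with adjusted p = 0.0161 for Kif20a without WT replicate 1, where it was lower in KO.

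Of the 32 genes that rose or fell, 17 passed in every one of 17 alternative fits, 6 of which left out a library: Top2a, Ccna2, Ccnb1, Ccnb2, Cdk1, Plk1, Ube2c, Cdca3, Aurkb, Birc5, Cenpa, Smc2, Kif11, Kif15, Nusap1, Prc1 and Anln. Of the 23 that did not pass, 22 had a fitted log2 fold change below 0, from -0.28 for Bub1, and 4 had an unadjusted p under 0.05 (Bub1, Bub1b, Ncaph and Kif4). The widest 95% interval among the 23 reached 0.25 to either side. At 10% or more of their 50-base exon stretches, 11 of the 55 shared sequence with another annotated gene, 6 of them genes that fell. The 6 were Ccnb1 (23.4%), Ube2c (16.0%), Cdc25c (11.9%), Ncapg (11.8%), Ccna2 (11.4%) and Plk1 (10.4%). Those that did not pass were Cks2 (29.7%), Kif20a (25.2%), Mybl2 (19.3%), Kif4 (14.5%) and Cdc20 (10.6%). Of the 55, 21 overlapped a gene on the other strand. Whether counting used the strand is not given in the sources used here, so reads in such stretches cannot be told apart between a gene and its partner.

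Many of the 55 genes shared an order of the libraries within a group. How often each library was lowest or highest was not counted over all genes. WT replicate 1 was the lowest WT library for 45 of the 55 genes, and WT replicate 2 the highest for 33 and WT replicate 3 for 19. Relative to the WT mean of each gene, the median log2 level over the 55 was -0.11 in WT replicate 1, 0.062 in WT replicate 2 and 0.037 in WT replicate 3. In KO replicates 1, 2 and 3 it was -0.31, -0.23 and -0.22. KO replicate 1 was below all WT libraries for 44 genes, KO replicate 2 for 36 and KO replicate 3 for 35. These counts for single KO libraries were not taken over all genes. All KO libraries were below all WT libraries for 29 of the 55, against 19.1% of all genes. Over all genes tested the same medians lay between -0.0066 and -0.00090. The median coefficient of variation of the 55 was 7.35% in WT and 4.23% in KO. Summed over the 55, the level was 1811, 2024 and 1987 CPM in WT and 1682, 1746 and 1754 CPM in KO. Without Smc4, the most abundant of them, the sums were 1274, 1447 and 1390 CPM in WT and 1136, 1200 and 1177 CPM in KO.

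**Figure D4:**
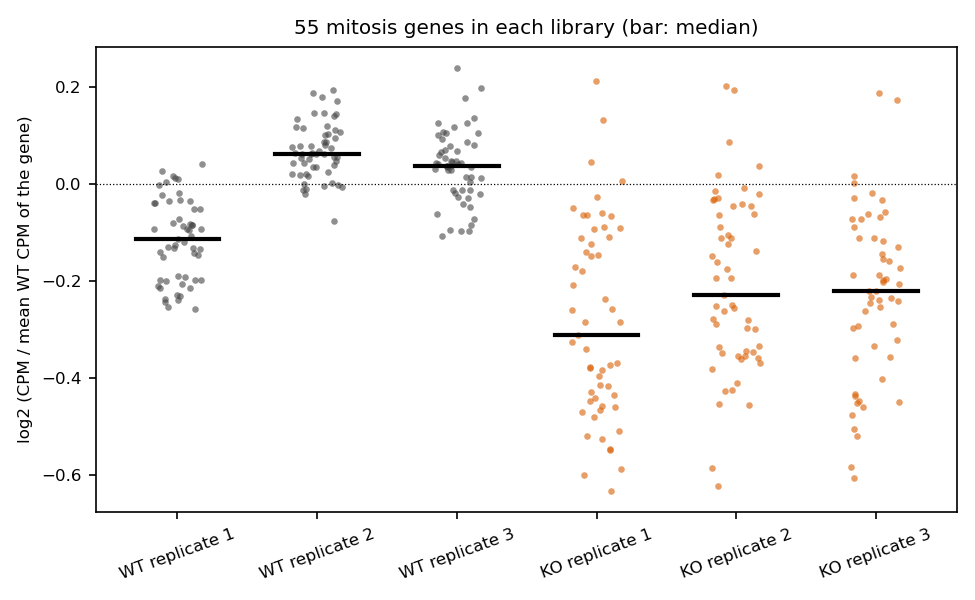
Level of the 55 genes (points) in each library, on the vertical axis as log2 of CPM over the gene's mean WT CPM, with the median as a bar. The medians are -0.11, 0.062 and 0.037 in WT replicates 1 to 3 and -0.31, -0.23 and -0.22 in KO replicates 1 to 3, so WT replicate 1 is the WT library nearest to the KO libraries.

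Of a separate list of 101 other mitosis genes 100 were tested, and 24 of them fell and 6 rose (24.0% and 6.00%), with a median log2 fold change of -0.073. Cdc25b, a phosphatase of the same family as Cdc25c, was at 115, 117 and 117 CPM in WT and 84.5, 87.3 and 84.3 in KO (log2 fold change -0.45, SE 0.034, adjusted p = 7.27e-07). Falls were also seen in Mis12 of the kinetochore (-0.50), Stmn1, which destabilises microtubules (-0.28), Ska2 of the kinetochore (-0.41) and Shcbp1 of the midbody (-0.51), all log2 fold changes. The 5 that rose with the smallest p were Gtse1, a microtubule-binding regulator of p53 (0.79), Arhgap11a, a GTPase-activating protein of cytokinesis (0.54), the APC/C subunit Anapc7 (0.18), Ube2s, which extends ubiquitin chains for the APC/C (0.37), and the centromere protein Cenpl (0.28). Gtse1 was at 10.998, 11.6 and 10.95 CPM in WT and 17.4, 19.1 and 21.5 in KO, with no overlap. The count of 30 was 14 without WT replicate 2 and 16 without KO replicate 1. In these fits the 4170 calls over all genes became 2740 and 2904. Ube2s had adjusted p = 0.0533 with WT replicate 2 left out. Cenpl had adjusted p = 0.0552 to 0.0802 with WT replicate 1 or KO replicates 1 and 3 left out in turn.

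Of 47 S phase genes 6 fell (12.8%, near the 12.1% of all genes) and 3 rose (6.38%, where 12.0% of all genes rose), with a median log2 fold change of -0.056. Cdt1, which licenses replication origins, was at 86.0, 77.1 and 78.5 CPM in WT and 103, 103 and 103 in KO (log2 fold change 0.36, SE 0.043, adjusted p = 4.66e-05). Pcna, the sliding clamp of DNA polymerase, was at 201, 199 and 198 CPM in WT and 220.5, 227 and 225 in KO (log2 fold change 0.17, SE 0.031, adjusted p = 0.00142), and Dtl, an adaptor for the destruction of Cdt1, also rose (0.27). Those that fell with the smallest p were the ribonucleotide reductase subunit Rrm2 (-0.32), Rad51ap1 (-0.48), the polymerase subunit Pold3 (-0.20), the checkpoint mediator Clspn (-0.22) and the methylation maintenance factor Uhrf1 (-0.16). The count of 9 was 19 without WT replicate 1 (15 fell, 4 rose) and 5 without KO replicate 1 (2 fell, 3 rose). In these fits the 4170 calls over all genes became 4996 and 2904. Adjusted p values past the threshold were 0.0606 with KO replicate 1 left out for Pold3, 0.0571 to 0.102 with WT replicate 2 or KO replicates 1 and 3 left out in turn for Clspn and 0.0797 to 0.134 with WT replicate 2 or KO replicates 1 and 2 left out in turn for Uhrf1.

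Among 27 cell cycle regulators 5 fell and 1 rose (18.5% and 3.70%), and among 18 inhibitors of proliferation 2 fell and 12 rose (11.1% and 66.7%), where 12.1% of all genes fell and 12.0% rose. Cdkn1a, which encodes an inhibitor of cyclin-dependent kinases and is a target of p53, was at 8.39, 7.84 and 7.56 CPM in WT and 25.0, 26.0 and 25.8 in KO (log2 fold change 1.69, SE 0.059, adjusted p = 5.24e-10). The other inhibitors with the smallest p were the stress gene Gadd45b (0.62) and the antiproliferative genes Tob1 (0.40), Btg3 (0.52) and Btg2 (0.24), all higher. Trp53, which encodes p53, was at 162 ± 1.07 CPM in WT and 176 ± 1.28 CPM in KO (log2 fold change 0.12, SE 0.031, adjusted p = 0.0105; adjusted p = 0.0542 with KO replicate 1 left out). Cdkn2a (-1.004) and Cdkn2c (-0.22; adjusted p = 0.0611 to 0.0693 with WT replicate 2 or KO replicates 1 and 3 left out in turn), which encode inhibitors of the kinases that bind D-type cyclins, fell. Cdkn2a was near the floor, with a CPM of at least 1 in fewer than 3 libraries. The regulators that fell were the E2F factors E2f2 (-0.30) and E2f8 (-0.45), the D-type cyclin Ccnd2 (-0.22), the growth-promoting transcription factor Myc (-0.18) and the pocket protein gene Rbl1 (-0.12; adjusted p = 0.0529 to 0.134 with WT replicates 2 and 3 or KO replicates 1, 2 and 3 left out in turn), while the D-type cyclin Ccnd3 rose (0.15). Of 3 subunits of DREAM, E2f4 was at 153 ± 5.43 CPM in WT and 157 ± 3.31 CPM in KO (log2 fold change 0.036, SE 0.036, adjusted p = 0.532), Rbl2 at 143 ± 5.75 CPM in WT and 134 ± 2.11 CPM in KO (log2 fold change -0.10, SE 0.037, adjusted p = 0.0736; adjusted p = 0.00490 with WT replicate 1 left out) and Lin54 at 19.8 ± 0.536 CPM in WT and 20.1 ± 0.196 CPM in KO (log2 fold change 0.023, SE 0.050, adjusted p = 0.797). None of these 3 passed, and the sign of Lin54 turned on library totals only and without WT replicate 1.

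**Figure D5:**
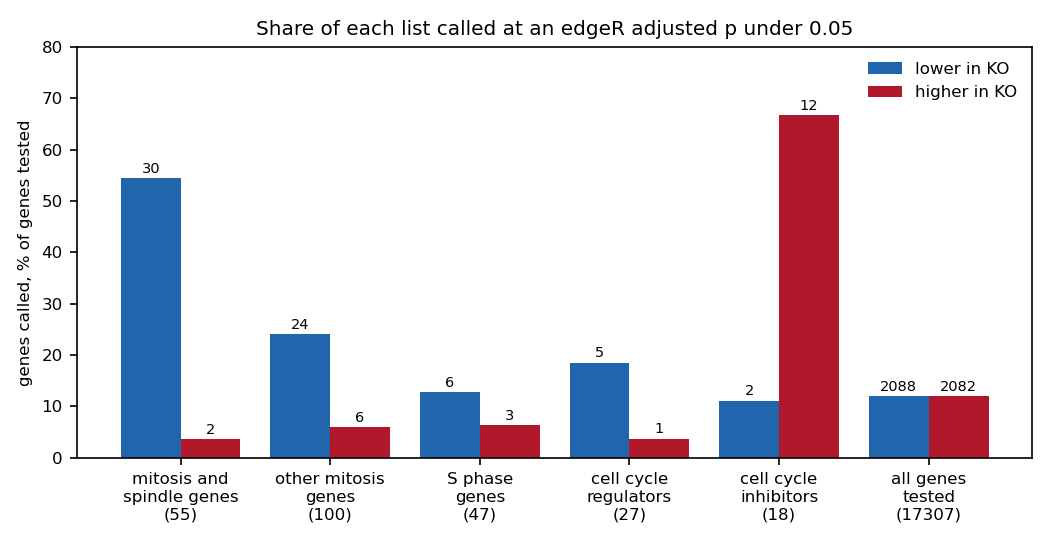
Share of the genes tested in each list (vertical axis, %, from 0) that fell (blue) or rose (red) in KO, with the number of genes above each bar and the number tested in brackets. The 55 mitosis and spindle genes stand at 54.5% lower and 3.64% higher, and the 18 inhibitors at 11.1% lower and 66.7% higher, beside 12.1% and 12.0% of all genes.

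RNA of several other cell types moved with the groups, and the counts of their markers stand beside the 12.1% of all genes that fell and the 12.0% that rose. Of 12 neutrophil precursor markers tested 11 fell and none rose, and their summed level was 22.7 to 30.3 CPM in WT, lowest in WT replicate 1, and 1.46 to 2.78 CPM in KO, with Fcnb at 0 in all 3 KO libraries. Of 12 red cell precursor markers 9 fell and 1, the transferrin receptor gene Tfrc that cycling T cells also express, rose. The median log2 fold change of the 12 was -3.76, and the lowest was -7.33. Their sums, which include Tfrc, were 124.0 to 128.0 CPM in WT and 96.6 to 103.1 CPM in KO. All 8 B cell markers fell, with sums of 48.9 to 53.6 CPM in WT and 22.2 to 24.4 CPM in KO. Of 11 germinal center and plasma cell markers 2 fell and 2 rose (18.2% each way, 259.2 to 274.4 CPM in WT and 289.7 to 293.5 CPM in KO), of 14 macrophage, monocyte and dendritic cell markers 6 fell and 3 rose (59.3 to 63.6 and 44.5 to 48.9 CPM), and of 6 CD8 T and NK cell markers 2 fell (29.8 to 30.7 and 25.8 to 27.3 CPM). Of 10 T cell and Treg markers 3 fell and 2 rose, with sums of 4673 to 4781 CPM in WT and 4703 to 4784 CPM in KO. Foxp3, the lineage factor of Tregs, was at 1136 ± 17.4 CPM in WT and 1052 ± 9.24 CPM in KO, Il2ra, which encodes the CD25 used in the sort, at 479.6 ± 16.05 CPM in WT and 433 ± 5.99 CPM in KO, and Cd3g, a chain of the T cell receptor complex, had a log2 fold change of -0.12, while the inhibitory receptor gene Ctla4 (0.65) and the receptor gene Tnfrsf18 (0.12) rose. The part of these other cells in the lower mitosis genes was not tested.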

How the data were processed

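Poly(A) or other RNA selection, the read counter and its strand setting are not given in the sources used here. Per the labels, libraries were made from 200 ng of total RNA with the TruSeq RNA kit, and the submitters' processing notes name HISAT2, DESeq2 and the mouse build mm10. The deposited values are raw counts per gene for 6 libraries. A count of 1 occurred in 620 entries and a count of 4 in 2579, so a count may not be 1 read, and counts divided by 4 were run as an alternative. The precision of the fold changes rests on the spread of 3 libraries a group.

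Counts were tested with edgeR 4.0.16 (quasi-likelihood test, robust, TMM factors, filterByExpr, R 4.3.3) over all 17307 genes kept, with no block, and p-values were adjusted by Benjamini-Hochberg. Alternatives were DESeq2 1.42.0, limma-voom (limma 3.58.1), edgeR's older method, other scalings and filters (none, or a CPM over 1 in 3 libraries), a replicate block, 506 mitochondrial, ribosomal protein, haemoglobin and immunoglobulin genes left out, and each library left out in turn. The scripts were tested on simulated data.

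The 55 genes and all lists were chosen with earlier results of these data known, so their counts are descriptions. Per-library values are given for Zfp335, for each of the 55 genes called and for the most abundant gene of a role with none. From the other cell cycle lists the 5 genes with the smallest p in each direction are named, with Cdkn1a, Trp53, E2f4, Rbl2 and Lin54 whatever their result. Positions, exon lengths and shared 50-base stretches come from GENCODE on GRCm38 (mm10), and promoters from RefSeq on GRCm38.p6.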

Additional observations from a re-analysis of the deposited data

How the results depend on the processing

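The log2 fold change of Zfp335 lay between -3.055 and -2.997 in all alternatives. Among alternatives that kept all libraries, 28 to 34 of the 55 mitosis genes were called, and when each library was left out in turn 19 to 37 were. The other counts ranged, when a library was left out, from 14 to 43 for the other mitosis genes, from 5 to 19 for the S phase genes, from 15 to 26 for the regulators and inhibitors together, from 2740 to 4996 for all genes and from 0 to 3 for the 55 genes at the study's cutoffs. At those cutoffs 2 of the 55 passed with upper-quartile factors and 2 with library totals only. Library totals only moved the split over all genes to 2575 lower and 1622 higher, from 2088 and 2082, and the median of all genes to -0.035. Among genes that did not pass, the fitted sign turned with upper-quartile factors (Mad2l1 at -0.0077), with library totals only (Mad2l1 at -0.024 and Lin54 at -0.0083) and with limma-voom (Cenpm at 0.010). When each library was left out, the log2 fold changes of genes whose sign turned ranged from -0.14 to 0.053 for Cks2, from -0.071 to 0.0064 for Aurka, from -0.033 to 0.054 for Mad2l1, from -0.092 to 0.11 for Cenpm, from -0.068 to 0.0098 for Kif20b and from -0.0016 to 0.036 for Lin54. The causes were not tested. The stricter filter removed Cdkn2a.

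Correlations between libraries were too small to settle whether replicate numbers pair them. Deviations of same-numbered WT and KO libraries correlated at 0.0082 to 0.033, and those of other pairs at -0.037 to 0.019. Each KO library correlated best with the WT library of its number, whereas WT replicate 2 correlated best with KO replicate 1 (0.019). With a replicate block 33 of the 55 genes were called, 31 lower and 2 higher, all 32 of the unblocked fit and Kif4 (log2 fold change -0.21, adjusted p = 0.0299), beside 31 of the other mitosis genes, 11 S phase genes, 21 regulators and inhibitors and 4227 of all genes. Zfp335 was at -3.02 with the block, and the study's cutoffs again passed 1 of the 55.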
